A study of Mus musculus with 11 samples.

Results

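The X-linked lymphocyte-regulated genes Xlr3a, Xlr3b, Xlr3c, Xlr4a, Xlr4b, Xlr4c, Xlr5a and Xlr5c were followed across 11 RNA-seq libraries of mouse embryonic stem (ES) cells. They were chosen by name, as the 8 rows of the deposited table that carry these symbols out of 24016 genes. All cells were of strain 129S4/SvJae and had been cultured with serum and LIF on a layer of irradiated fibroblasts from mouse embryos, and the labels give J1 as their origin. TKO cells had lost Dnmt1 together with Dnmt3a and Dnmt3b, the DNA methyltransferases, and 3 further lines carried Dnmt3a1, Dnmt3a2 or Dnmt3b1 put back into TKO. DKO cells lacked Dnmt3a and Dnmt3b but kept Dnmt1, and another 3 lines carried the same enzymes put back into DKO. The wild-type (WT) line was J1. There were 2 libraries for each of TKO+Dnmt3a1 and TKO+Dnmt3a2 and 1 for each of the 7 remaining groups, so a line cannot be told apart from its genotype. How the enzymes were expressed and whether a line was a single clone are not given in the sources used here. All 8 genes were under 1 RPKM (reads per kilobase of transcript, scaled to library size) in WT and higher in both knockout parents. Of the 14229 genes tested, 8575 were higher in TKO than in WT and 7847 were higher in DKO. With an enzyme put back, all 8 were lower in all 3 DKO lines than in any TKO-family library, beside 14.3% of all genes tested.

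Xlr genes form a mouse X-linked superfamily related to Sycp3, a structural protein of the synaptonemal complex that holds paired chromosomes in meiosis, and their proteins share its Cor1-type domain. The Xlr3, Xlr4 and Xlr5 copies sit together in a tandemly repeated block of the X chromosome, and Xlr3b, Xlr4b and Xlr4c are known as imprinted genes in the mouse brain. Dnmt1 is the maintenance enzyme that copies CpG methylation to the new strand after replication, while Dnmt3a and Dnmt3b set methylation on unmethylated DNA. Dnmt3a1 is the long isoform of Dnmt3a and Dnmt3a2 the short one, and Dnmt3b1 is the catalytically active full-length form of Dnmt3b.

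The promoters are shown because CpG dinucleotides are what these enzymes methylate. The copies of Xlr3, and likewise those of Xlr4, are also close to identical there. Each line gives 300 bases from RefSeq on the strand of the gene, 5′ to 3′, from 250 bases before to 50 bases after the annotated start, with every CpG in capitals.
Xlr3a (GRCm38.p6, chrX:73097046-73097345, minus strand): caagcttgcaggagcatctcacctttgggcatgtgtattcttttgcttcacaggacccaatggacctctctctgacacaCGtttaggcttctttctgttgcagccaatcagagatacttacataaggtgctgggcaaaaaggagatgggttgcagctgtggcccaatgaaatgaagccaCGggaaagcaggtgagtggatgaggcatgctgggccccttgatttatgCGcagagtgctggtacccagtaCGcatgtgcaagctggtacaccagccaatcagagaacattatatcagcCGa
Xlr3c (GRCm38.p6, chrX:73265341-73265640, minus strand): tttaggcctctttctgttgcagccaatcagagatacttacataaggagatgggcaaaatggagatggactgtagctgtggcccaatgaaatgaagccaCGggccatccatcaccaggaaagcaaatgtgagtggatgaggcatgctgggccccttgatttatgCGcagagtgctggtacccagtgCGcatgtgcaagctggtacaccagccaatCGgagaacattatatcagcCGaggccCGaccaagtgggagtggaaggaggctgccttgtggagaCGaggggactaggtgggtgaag
Xlr4a (GRCm38.p6, chrX:73082458-73082757, minus strand): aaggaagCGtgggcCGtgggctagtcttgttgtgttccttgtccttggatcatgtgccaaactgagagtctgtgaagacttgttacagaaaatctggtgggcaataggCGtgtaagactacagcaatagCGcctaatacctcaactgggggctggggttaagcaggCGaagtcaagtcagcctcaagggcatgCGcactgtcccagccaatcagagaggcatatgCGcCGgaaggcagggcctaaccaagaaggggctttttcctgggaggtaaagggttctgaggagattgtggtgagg
Xlr5a (GRCm38.p6, chrX:73117653-73117952, minus strand): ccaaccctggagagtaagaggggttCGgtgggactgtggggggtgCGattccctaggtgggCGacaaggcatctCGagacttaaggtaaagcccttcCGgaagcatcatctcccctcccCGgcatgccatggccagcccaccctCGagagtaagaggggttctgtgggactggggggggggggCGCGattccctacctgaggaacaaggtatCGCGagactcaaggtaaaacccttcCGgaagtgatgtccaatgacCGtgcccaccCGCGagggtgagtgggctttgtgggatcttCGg
Xlr3a held 5 CpG in this window, Xlr3b and Xlr3c held 7 each, Xlr4a and Xlr4b 8 each, and Xlr4c 7. Xlr5a held 16. Over 27025 RefSeq mouse promoters of the same length the median was 7 CpG, with quartiles of 3 and 21, so the Xlr3 and Xlr4 windows were near the median and Xlr5a was between the median and the upper quartile. The annotated start of Xlr5c gave a window with 1 CpG that had no long alignment to the Xlr5a window (58.3% identity over 12 aligned bases). The Xlr3 windows were 93.7% to 98.1% identical to each other and the Xlr4 windows 98.2% to 98.9%. Between subfamilies no alignment ran past 80 bases. The palindrome TGCGCA, searched after the sequences had been read, was present in all 6 Xlr3 and Xlr4 windows and in neither Xlr5 window, against 8.06% of all promoters. The CCAAT box, searched on both strands as CCAAT and ATTGG, was present in 7 of the 8 windows, against 37.9% of all promoters. CACGTG was found in none of the 8, against 7.24% of all promoters. TCGCGA was present in the Xlr5a window and in none of the other 7, against 2.58% of all promoters. TTCCCGC, searched with its reverse complement GCGGGAA, was in none of the 8, against 4.66% of all promoters. Near-identical copies are not independent instances of a motif, and methylation of these windows was not analysed here.

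The transcripts of a subfamily are close to identical, those of Xlr5a and Xlr5c included, which limits how well a single copy can be measured. Within a subfamily the GENCODE transcripts were 98.5% to 99.2% identical over the aligned stretch. Only 28.3% of the 50-base stretches of Xlr3a occurred in no other gene's transcript, and the share was 6.67% for Xlr3b, 27.9% for Xlr3c, 30.5% for Xlr4a, 26.9% for Xlr4b, 24.9% for Xlr4c, 13.1% for Xlr5a and 16.7% for Xlr5c. With 100-base stretches the share was between 23.6% for Xlr5c and 54.5% for Xlr4a. Xlr5 transcripts shared no 50-base stretch with Xlr3 or Xlr4, whereas Xlr3 and Xlr4 shared up to 10.8%. Pseudogenes of the subfamilies shared stretches as well. The largest shares were 60.1% of Xlr5c with Xlr5e-ps, 29.6% of Xlr4c with Xlr4e-ps and 20.4% of Xlr3a with Xlr3d-ps. Outside the named copies and these pseudogenes, the predicted gene Gm14694 shared 10.2% of the Xlr5c stretches and 0.87% of those of Xlr5a. Read length and the treatment of reads that map to several places are not given in the sources used here, so values of single copies are uncertain and sums over a subfamily are given beside them.

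**Figure D1:**
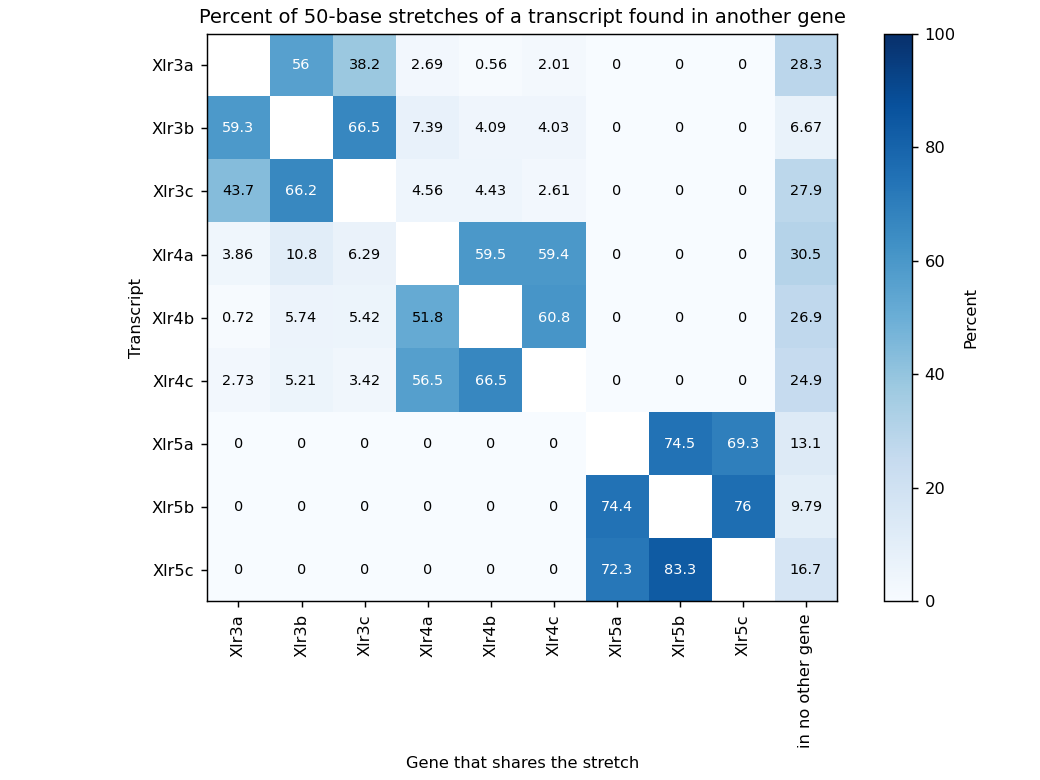
Percent of the 50-base stretches of each transcript (rows) that also occur in another gene of the cluster (columns), with the share found in no other gene in the last column. Among the genes plotted, sharing was between copies of a subfamily and, at up to 10.8%, between Xlr3 and Xlr4; Xlr3b had the least sequence of its own, at 6.67%.

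Depth, estimated from the spacing of low RPKM values, was 21.8 to 33.0 M reads per library, so 1 read in a transcript the size of Xlr3a was worth about 0.02 RPKM. Dnmt1 RNA ranged over 6.73 to 12.4 RPKM among the 6 libraries of the TKO family, was at 55.9 to 74.5 RPKM in the 4 DKO-family libraries, and was at 71.0 RPKM in WT. Dnmt3a RNA was at 39.4 and 34.2 RPKM in TKO+Dnmt3a1, 21.8 and 11.1 RPKM in TKO+Dnmt3a2 and 10.2 RPKM in TKO+Dnmt3b1, against 4.24 RPKM in TKO. It was at 17.6 RPKM in DKO+Dnmt3a1, 11.4 RPKM in DKO+Dnmt3a2 and 6.76 RPKM in DKO+Dnmt3b1, against 3.63 RPKM in DKO, and at 22.7 RPKM in WT. Both families thus had more Dnmt3a RNA in every add-back library than in the parent, the most in the Dnmt3a1 lines. Dnmt3b RNA was at 100.4 RPKM in TKO+Dnmt3b1 and 20.9 to 44.4 RPKM in the other TKO add-backs, against 45.3 RPKM in TKO. It was at 29.6 RPKM in DKO+Dnmt3b1, 13.3 RPKM in DKO+Dnmt3a1 and 14.7 RPKM in DKO+Dnmt3a2, against 5.68 RPKM in DKO, and at 25.03 RPKM in WT. A value per gene does not separate deleted exons or isoforms, so the level in TKO does not test the Dnmt3b label. All 8 ES cell markers were above 1 RPKM in every library. Summed RPKM of 30 fibroblast markers was 3400 in TKO+Dnmt3b1 and 738 to 1291 in the other TKO-family libraries, 2577 in DKO+Dnmt3b1, 307 in DKO+Dnmt3a2, 786 in DKO+Dnmt3a1 and 995 in DKO, and 630 in WT. The sum of 17 macrophage markers was 312 in TKO+Dnmt3b1, 285 in DKO+Dnmt3b1 and 13.0 in DKO+Dnmt3a2, where 8 of them were at 0, and 41.8 to 115 in the other libraries. The Y-linked gene Zfy1 was at 2.84 to 4.13 RPKM in the 4 DKO-family libraries and at 0 in all TKO-family libraries and WT.

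Xlr3a was the most abundant copy. It had 14.0 and 24.8 RPKM in TKO+Dnmt3a1, 12.6 and 20.8 RPKM in TKO+Dnmt3a2, and 9.09 RPKM in TKO+Dnmt3b1, against 25.7 RPKM in TKO. It had 0.871 RPKM in DKO+Dnmt3a1, 0.169 RPKM in DKO+Dnmt3a2 and 1.60 RPKM in DKO+Dnmt3b1, against 27.7 RPKM in DKO. The WT library had 0.872 RPKM. All 6 TKO-family libraries lay above all 3 DKO add-back libraries, as they did for each of the 8 genes, beside 14.3% of all genes tested, and the DKO add-backs lay on both sides of WT.

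Xlr3b, the copy with the least unique sequence, had 2.55 and 5.93 RPKM in TKO+Dnmt3a1, 4.04 and 4.73 RPKM in TKO+Dnmt3a2, and 3.44 RPKM in TKO+Dnmt3b1, against 4.63 RPKM in TKO. It had 0.493 RPKM in DKO+Dnmt3a1, 0.129 RPKM in DKO+Dnmt3a2 and 1.12 RPKM in DKO+Dnmt3b1, against 7.07 RPKM in DKO and 0.019 RPKM in WT. Here the TKO add-backs lay on both sides of TKO. Xlr3c had 2.58 and 5.94 RPKM in TKO+Dnmt3a1, 6.50 and 5.57 RPKM in TKO+Dnmt3a2, and 5.82 RPKM in TKO+Dnmt3b1, against 9.87 RPKM in TKO. It had 0.277 RPKM in DKO+Dnmt3a1, 0.154 RPKM in DKO+Dnmt3a2 and 0.498 RPKM in DKO+Dnmt3b1, against 21.5 RPKM in DKO and 0.019 RPKM in WT. The WT values of Xlr3b and Xlr3c each correspond to about 1 read. Xlr3a made up 63.9% of the summed Xlr3 RPKM in TKO, 49.2% in DKO and 95.8% in WT, a split that rests on how shared reads were placed.

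Xlr4a had 1.83 and 6.70 RPKM in TKO+Dnmt3a1, 3.71 and 4.05 RPKM in TKO+Dnmt3a2, and 3.19 RPKM in TKO+Dnmt3b1, against 5.82 RPKM in TKO. It had 0.235 RPKM in DKO+Dnmt3a1, was listed at 0 in DKO+Dnmt3a2 and had 0.766 RPKM in DKO+Dnmt3b1, against 4.398 RPKM in DKO and 0.103 RPKM in WT. The second TKO+Dnmt3a1 library was above TKO, and the first was the lowest of the TKO family. Xlr4b had 1.11 and 3.77 RPKM in TKO+Dnmt3a1, 1.27 and 2.05 RPKM in TKO+Dnmt3a2, and 2.28 RPKM in TKO+Dnmt3b1, against 2.83 RPKM in TKO. It had 0.066 RPKM in DKO+Dnmt3a1, was listed at 0 in DKO+Dnmt3a2 and had 0.505 RPKM in DKO+Dnmt3b1, against 3.74 RPKM in DKO and 0.102 RPKM in WT. Its libraries fell in the same high and low classes as those of Xlr4a. Xlr4c had 0.837 and 1.90 RPKM in TKO+Dnmt3a1, 1.18 and 0.964 RPKM in TKO+Dnmt3a2, and 1.61 RPKM in TKO+Dnmt3b1, against 2.26 RPKM in TKO. It was listed at 0 in DKO+Dnmt3a1 and DKO+Dnmt3a2 and had 0.249 RPKM in DKO+Dnmt3b1, against 2.38 RPKM in DKO and 0.075 RPKM in WT. For Xlr4c, unlike Xlr4a and Xlr4b, all 5 TKO add-back libraries were below TKO.

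Xlr5a had 0.377 and 1.59 RPKM in TKO+Dnmt3a1, 0.845 and 1.05 RPKM in TKO+Dnmt3a2, and 1.22 RPKM in TKO+Dnmt3b1, against 3.15 RPKM in TKO. It was listed at 0 in DKO+Dnmt3a1 and DKO+Dnmt3a2 and had 0.037 RPKM in DKO+Dnmt3b1, against 3.41 RPKM in DKO, and was listed at 0 in WT. The highest TKO add-back was at 50.5% of TKO, the lowest such maximum of the 8 genes. Xlr5c had 1.076 and 2.64 RPKM in TKO+Dnmt3a1, 2.52 and 1.64 RPKM in TKO+Dnmt3a2, and 1.70 RPKM in TKO+Dnmt3b1, against 2.99 RPKM in TKO. It had 0.074 RPKM in DKO+Dnmt3a1, 0.065 RPKM in DKO+Dnmt3a2 and 0 in DKO+Dnmt3b1, against 5.72 RPKM in DKO and 0.057 RPKM in WT. Each of its low values above 0 corresponds to about 1 read in a transcript of 540 nt, so Xlr5c was at the limit of detection in all 3 DKO add-backs and WT.

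**Figure D2:**
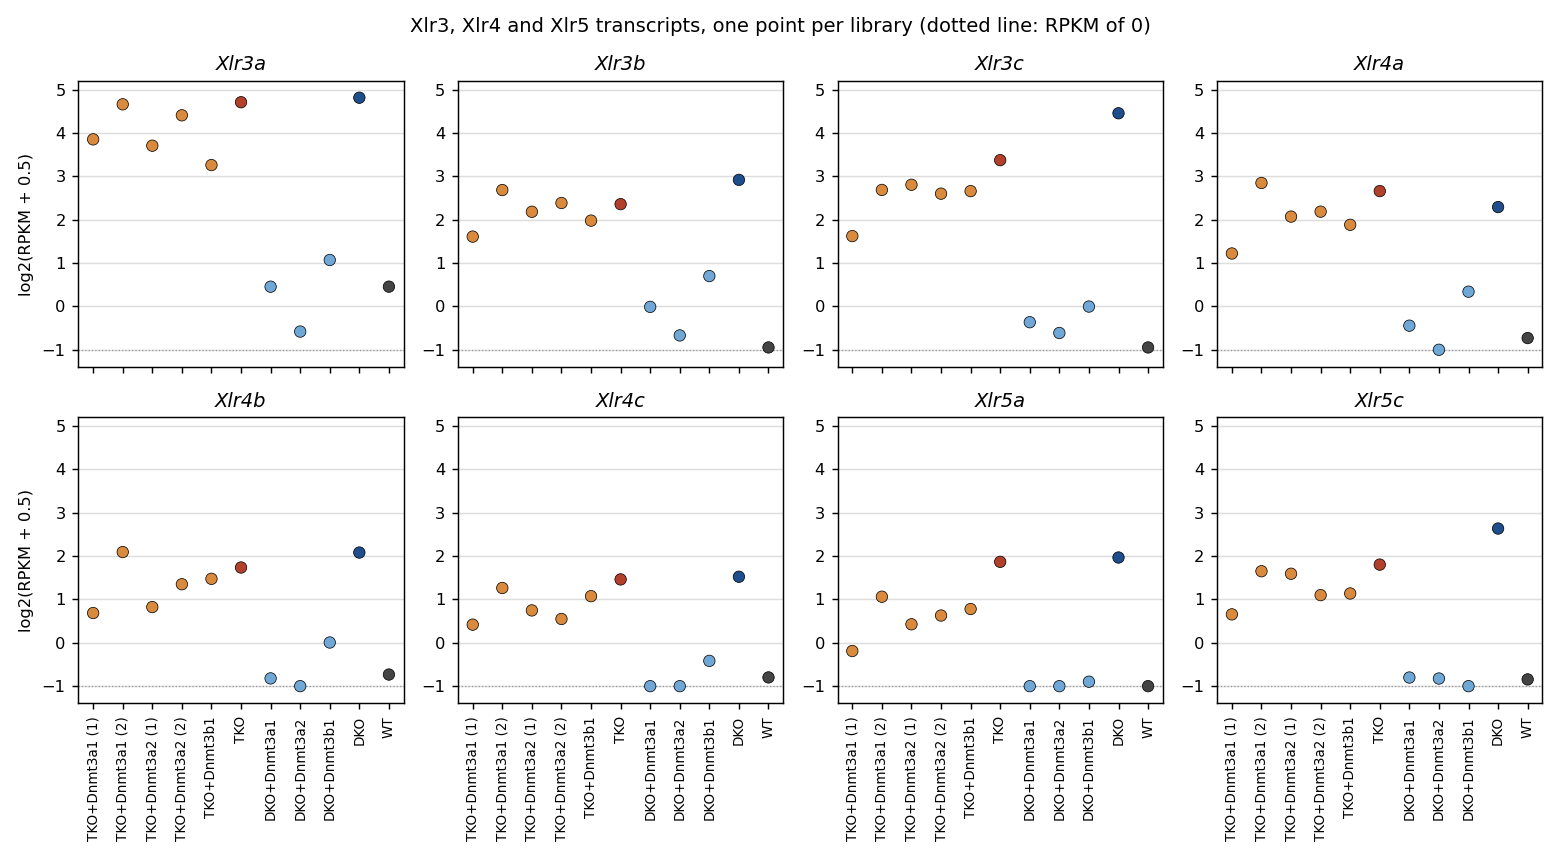
log2(RPKM + 0.5) of each gene (vertical axis), 1 point per library, with the TKO add-backs in orange, TKO in red, the DKO add-backs in light blue, DKO in dark blue and WT in grey. In all 8 panels every TKO-family point is above every DKO add-back point and above WT, the second of which holds for 32.3% of all genes tested.

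In the knockout parents against WT, all 8 genes were higher in TKO and all 8 were higher in DKO. All 8 passed the low-value filter through knockout-family libraries and 0 of them through WT. On the log2(RPKM + 0.5) scale, which understates changes of low genes, the differences in TKO ran from 2.26 ± 0.48 for Xlr4c to 4.32 ± 0.54 for Xlr3c (SE). In DKO they ran from 2.32 ± 0.48 for Xlr4c to 5.40 ± 0.54 for Xlr3c. The medians of the 8 genes were 3.09 in TKO and 3.25 in DKO, beside 0.13 and 0.04 over all 14229 genes tested. Each of these groups is a single library whose error was taken from the 2 replicated lines. In the linear model (limma, Benjamini-Hochberg adjusted over all genes tested) 0 of the 8 genes passed an adjusted p of 0.05 in TKO, where 0.344% of all genes did. The adjusted p-values in TKO were between 0.056 for Xlr3a and 0.192 for Xlr4b. In DKO 0 of 14229 genes passed, or 0% of all genes, although 1181 genes had an unadjusted p under 0.05. The adjusted p-values of the 8 genes in DKO were between 0.163 and 0.390. Both comparisons use the same WT library. In both comparisons all 8 unadjusted p-values were under 0.05, as were those of 2447 of all genes tested in TKO. Between the parents, 7 of the 8 genes were lower in TKO than in DKO, as were 6199 of the 14229 genes tested. The differences were -1.08 to 0.37, and 0 of 8 passed, against 0.0422% of all genes. Of the 8 unadjusted p-values 0 were under 0.05, beside 1915 over all genes.

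With an enzyme put back into TKO, each gene stayed above its level in every DKO add-back library, at shares of TKO that differed between genes and libraries. Summed over the 8 genes, the level was 24.3 and 53.3 RPKM in TKO+Dnmt3a1, 32.6 and 40.8 RPKM in TKO+Dnmt3a2, and 28.4 RPKM in TKO+Dnmt3b1, against 57.3 RPKM in TKO. These sums are 42.5% to 93.1% of TKO, and the lowest and the highest are the 2 libraries of the same line, TKO+Dnmt3a1. Xlr3a is the largest part of the sum in all 6 libraries. By subfamily, the share of TKO was 45.7% to 91.3% for Xlr3, 34.6% to 113% for Xlr4 and 23.7% to 68.9% for Xlr5, and it was 11.96% to 50.5% for Xlr5a alone. Between those 2 libraries single genes differed from 1.78 times for Xlr3a to 4.22 times for Xlr5a. All 5 add-back libraries were below TKO for Xlr3a, Xlr3c, Xlr4c, Xlr5a and Xlr5c, 5 of 8 genes, beside 20.6% of all genes. The mean differences between TKO add-backs and TKO ran from -1.33 ± 0.42 for Xlr5a to -0.19 ± 0.51 for Xlr3b. In a model with 5 classes (TKO add-backs, TKO, DKO add-backs, DKO and WT), 0 of 8 passed, against 0.00703% of all genes. Of the 8, Xlr5a alone had an unadjusted p under 0.05 (0.0121, adjusted 0.366 in limma), as did 1337 of all genes tested.

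Against WT, the TKO add-backs were higher for all 8 genes, as they were for 8584 of the 14229 genes tested. All 8 had passed the low-value filter through knockout-family libraries and 0 through WT, so this direction follows in part from the filter. In that direction 4 of 8 passed the test, against 1.11% of all genes. These were Xlr3a (3.52 ± 0.62, adjusted p = 0.0321 in limma), Xlr3b (3.12 ± 0.51, adjusted p = 0.0249), Xlr3c (3.42 ± 0.43, adjusted p = 0.00896) and Xlr5c (2.07 ± 0.38, adjusted p = 0.036). The adjusted p-values of Xlr4a, Xlr4b, Xlr4c and Xlr5a were between 0.0598 and 0.108. The count was 1 without either TKO+Dnmt3a2 library or without DKO+Dnmt3a1.

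With an enzyme put back into DKO every gene was low. The 8 genes summed to 2.02 RPKM in DKO+Dnmt3a1, 0.517 RPKM in DKO+Dnmt3a2 and 4.78 RPKM in DKO+Dnmt3b1, against 75.8 RPKM in DKO, and to 1.25 RPKM in WT. These are 2.66%, 0.682% and 6.31% of DKO. For Xlr3 the share of DKO was 0.805% in DKO+Dnmt3a2, 2.92% in DKO+Dnmt3a1 and 5.74% in DKO+Dnmt3b1. For Xlr4 it was 2.86% in DKO+Dnmt3a1 and 14.5% in DKO+Dnmt3b1, with all 3 copies listed at 0 in DKO+Dnmt3a2. For Xlr5 it was under 1% in each add-back line, the highest being 0.811% in DKO+Dnmt3a1. All 3 add-back lines were below DKO for 8 of 8 genes, beside 37.6% of all genes. Only Xlr3a and Xlr3b reached 1 RPKM in a DKO add-back library. The other genes passed the low-value filter through higher libraries alone, so their direction follows in part from the filter. In the 5-class limma model 4 of 8 were called lower, against 0.253% of all genes. They were Xlr3c (-4.78 ± 0.45, adjusted p = 0.0183), Xlr5c (-3.51 ± 0.40, adjusted p = 0.0252), Xlr3a (-4.50 ± 0.65, adjusted p = 0.0417) and Xlr5a (-2.93 ± 0.44, adjusted p = 0.0429). Xlr4c, Xlr3b, Xlr4b and Xlr4a had differences of -2.33 to -2.91 and adjusted p-values of 0.0534 to 0.0824. The count was 2 without TKO+Dnmt3a1 replicate 2, 1 without either TKO+Dnmt3a2 library, 0 without DKO+Dnmt3a1 or DKO+Dnmt3a2, and 8 without both Dnmt3b1 libraries. Against WT the DKO add-backs differed by -0.14 ± 0.65 for Xlr3a to 0.95 ± 0.53 for Xlr3b. In limma 0 of 8 passed, against 0.141% of all genes. The unadjusted p-value was under 0.05 for 0 of 8, beside 2766 of all genes tested.

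Among the DKO add-backs the summed level was highest in DKO+Dnmt3b1 and lowest in DKO+Dnmt3a2, and for each Xlr3 and Xlr4 gene no other line was above DKO+Dnmt3b1 or below DKO+Dnmt3a2. The fibroblast and macrophage marker sums had that order too, as given above, and their part in it was not tested. Xlr5c did not follow that order, being at 0 in DKO+Dnmt3b1. In TKO+Dnmt3b1, the library with the highest fibroblast sum, the 8 genes summed to 49.5% of TKO, inside the range of the other TKO add-backs. In bulk RNA, fewer cells that express a gene and less RNA per cell cannot be told apart.

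**Figure D3:**
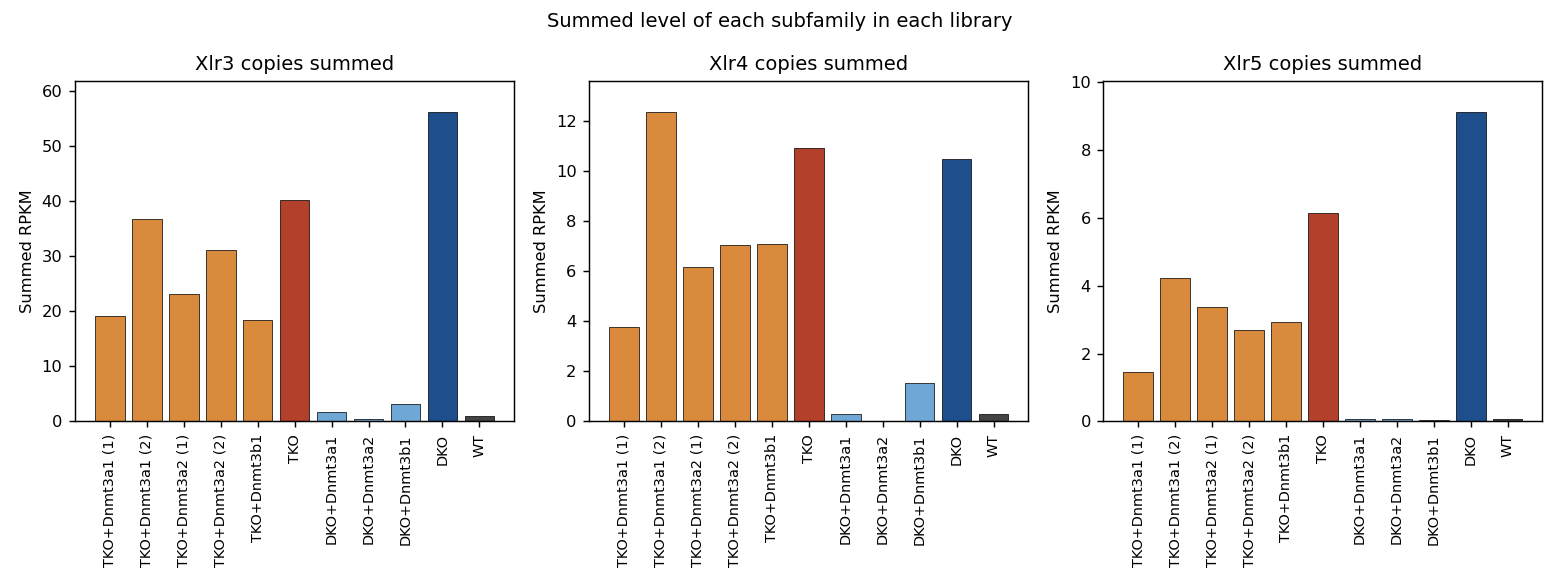
Summed RPKM (vertical axis, from 0) of the 3 Xlr3 copies, the 3 Xlr4 copies, and Xlr5a with Xlr5c, 1 bar per library. The TKO add-backs reached 18.4 to 36.7 RPKM for Xlr3, while the DKO add-backs were at 0.452 to 3.22 RPKM and WT at 0.91 RPKM.

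The contrast between the families passed the test for every gene. With the enzymes put back, all 8 genes were higher in TKO add-backs than in DKO add-backs at an adjusted p under 0.05 in the 5-class limma model, where 9.04% of all genes were called higher. The 5 TKO add-back libraries all lay above the 3 DKO add-back libraries for 8 of 8 genes, beside 15.4% of all genes. Apart from Xlr3a and Xlr3b, these genes passed the low-value filter only through TKO-family libraries or DKO. Their direction in this contrast therefore follows in part from the filter. Xlr3a differed by 3.66 ± 0.41 (adjusted p = 0.00193), Xlr3c by 2.80 ± 0.29 (adjusted p = 0.00136) and Xlr3b by 2.16 ± 0.34 (adjusted p = 0.0074). Xlr4a differed by 2.41 ± 0.40 (adjusted p = 0.0087), Xlr4b by 1.89 ± 0.36 (adjusted p = 0.0151) and Xlr4c by 1.62 ± 0.26 (adjusted p = 0.00824). Xlr5c differed by 2.10 ± 0.25 (adjusted p = 0.00244) and Xlr5a by 1.51 ± 0.28 (adjusted p = 0.0132). The median over the 8 genes was 2.13, beside 0.10 over all genes tested. Without DKO+Dnmt3a1, 5 of the 8 passed, and without DKO+Dnmt3a2 6 did; without both Dnmt3b1 libraries all 8 did. The families also differ in the Y-linked RNA given above, so enzyme background and line cannot be told apart. Over 495 X-linked genes other than the 8, the median difference was 0.04, beside 0.10 over 13720 other genes.

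Whether the add-back response itself differed between the families was tested as the TKO response minus the DKO response. The difference was positive for all 8 genes, from 1.61 ± 0.61 for Xlr5a to 3.88 ± 0.63 for Xlr3c, beside 7226 of the 14229 genes tested. Unadjusted p-values ran from 0.000183 for Xlr3c to 0.0428 for Xlr4a, and adjusted ones in limma from 0.394 to 0.526. By that adjustment 0 of 8 passed and 0% of all genes did, with 1290 genes at an unadjusted p under 0.05. Each parent is a single library in this contrast.

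**Figure D4:**
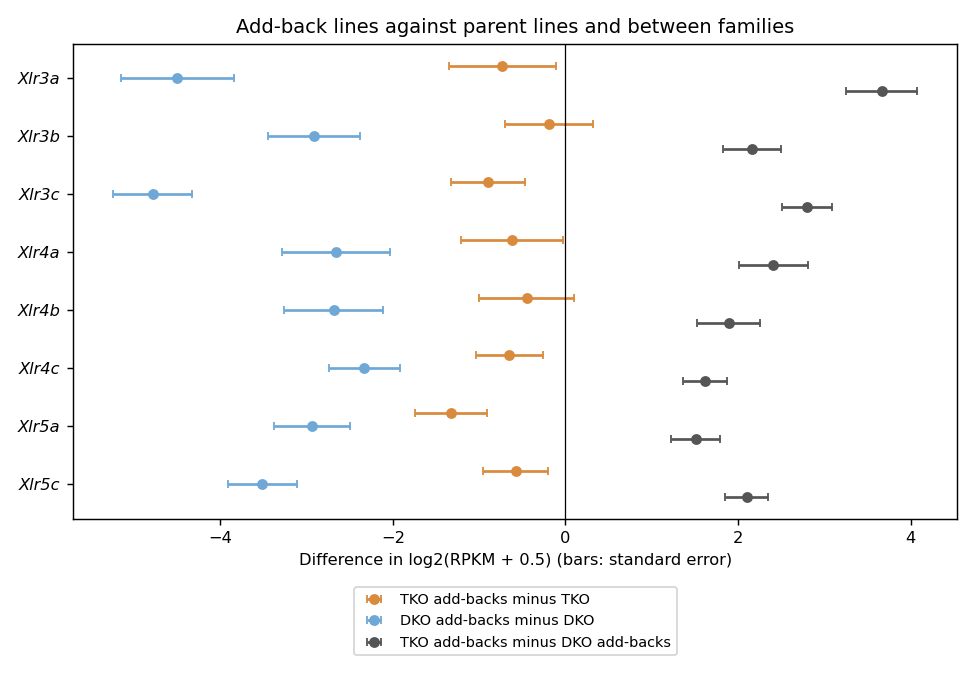
Difference in log2(RPKM + 0.5) (horizontal axis) for each gene, as TKO add-backs minus TKO (orange), DKO add-backs minus DKO (light blue) and TKO add-backs minus DKO add-backs (grey), with standard errors from the 5-class model. The light blue points lie at -2.33 to -4.78, the orange ones at -0.19 to -1.33, and the grey ones at 1.51 to 3.66.

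The enzymes were set against each other in 2 contrasts, and none of the 8 genes passed in either; the enzymes within DKO, at 1 library each, were not tested against each other. Taken singly against TKO, Dnmt3a1 gave differences of -1.43 to -0.21, Dnmt3a2 of -1.34 to -0.08 and Dnmt3b1 of -1.45 to -0.26. For each, 0 of 8 genes passed in limma, as did 0% of all genes. Unadjusted p-values were under 0.05 for 2, 1 and 1 of the 8, beside 1369, 1227 and 3318 of the 14229 genes tested. Against DKO, Dnmt3a1 gave -4.82 to -2.52, Dnmt3a2 gave -5.40 to -2.52 and Dnmt3b1 gave -4.46 to -1.94. The shared -2.52 is that of Xlr4c, which was listed at 0 in DKO+Dnmt3a1 and DKO+Dnmt3a2, where the pseudocount limits the difference. With DKO as the parent 0 of 8 genes passed for each enzyme, against 0.0281% of all genes for Dnmt3a1 and for Dnmt3a2 and 0% for Dnmt3b1. All 8 unadjusted p-values were under 0.05 for each enzyme. So were those of 2012, 2788 and 3873 of the 14229 genes tested, for Dnmt3a1, Dnmt3a2 and Dnmt3b1. Between TKO+Dnmt3a1 and TKO+Dnmt3a2 the differences were -0.55 to 0.30, and 0 of 8 passed, against 0.00703% of all genes. In an additive model over both families, Dnmt3b1 differed from the mean of the Dnmt3a isoforms by -0.25 to 0.46. Here 0 of 8 passed, against 20.7% of all genes called in either direction. In these 2 contrasts between enzymes 0 of 8 unadjusted p-values were under 0.05, beside 611 and 5220 of all genes tested. In the same model any add-back against its parent called Xlr5a alone (-2.08 ± 0.40, adjusted p = 0.0419 in limma), 1 of 8, against 2.81% of all genes called lower. That count was 7 without TKO and 0 without any single other library but TKO+Dnmt3a2 replicate 2, and the model assumes the same response in both families.

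The genes beside the Xlr block were set against it. In the order of the RefSeq annotation the block runs Xlr4a, Xlr3a, Xlr5a, Xlr5b, Spin2d, Xlr3b, Xlr4b, F8a, Xlr4c, Xlr3c, Xlr5c, with Zfp185, Pnma5 and Pnma3 before it and Zfp275, Zfp92, Trex2 and Haus7 after it. Of 14 listed neighbours 10 passed the low-value filter. Pnma5, a paraneoplastic antigen gene of retrotransposon origin, had 17.1 and 29.8 RPKM in TKO+Dnmt3a1, 25.9 and 27.3 RPKM in TKO+Dnmt3a2 and 18.8 RPKM in TKO+Dnmt3b1, against 36.7 RPKM in TKO. It had 4.18 RPKM in DKO+Dnmt3a1, 4.19 RPKM in DKO+Dnmt3a2 and 5.45 RPKM in DKO+Dnmt3b1, against 18.3 RPKM in DKO and 2.27 RPKM in WT. Its libraries split as those of the Xlr genes did. Pnma5 was called higher in TKO than in WT (3.75 ± 0.39, adjusted p = 0.0445 in limma) and in TKO add-backs than in DKO add-backs (2.23 ± 0.20, adjusted p = 0.000754). Under quantile normalization no gene was called in TKO against WT, Pnma5 included. F8a, which lies within the block, was at 3.04 RPKM in TKO and 1.804 RPKM in DKO, against 1.33 RPKM in WT, and passed neither test (adjusted p = 0.25 in TKO). Among the other neighbours, Dusp9 was also called higher in TKO add-backs than in DKO add-backs (0.89 ± 0.22, adjusted p = 0.0344 in limma). The median of the 10 neighbours was 0.09 in TKO and 0.08 in DKO against WT, beside 0.13 and 0.04 over all genes tested. Bgn, which encodes a matrix proteoglycan made by fibroblasts, had 293 RPKM in TKO+Dnmt3b1 and 224 RPKM in DKO+Dnmt3b1, against 38.4 RPKM in WT. Pnma3, Spin2d, Zfp92, Trex2 and Atp2b3 stayed under 1 RPKM in every library.

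**Figure D5:**
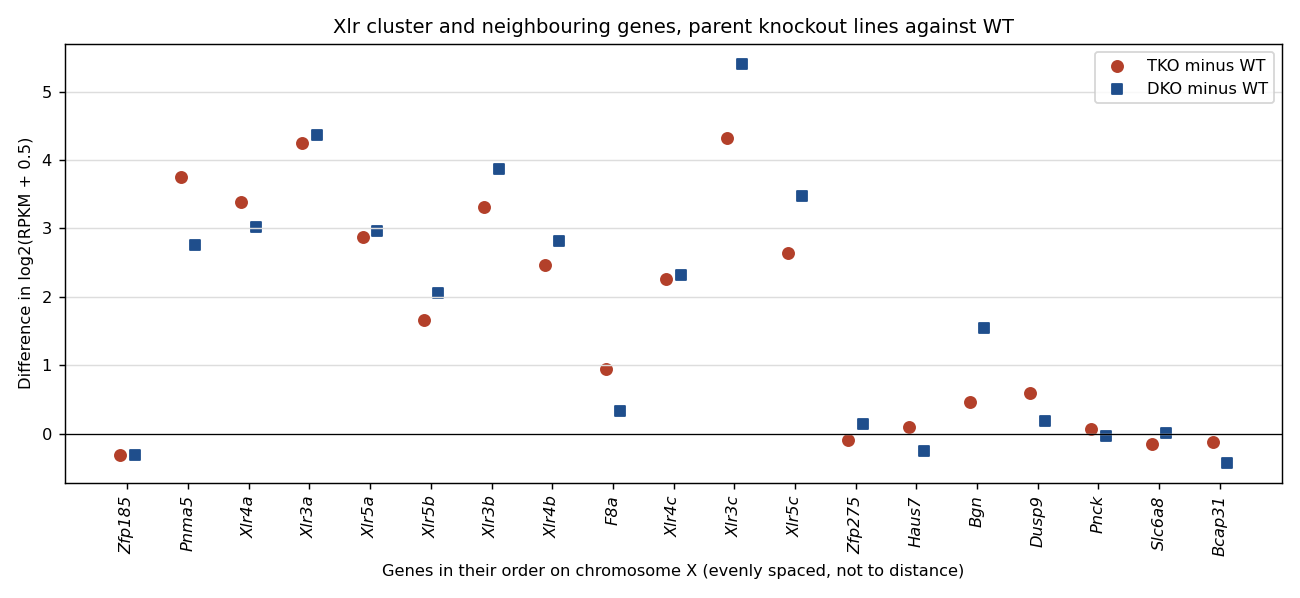
Difference in log2(RPKM + 0.5) from WT (vertical axis) in TKO (circles) and DKO (squares) for the genes tested, in their order on the X chromosome, evenly spaced. The Xlr genes and Pnma5 lie between 1.66 and 5.40 and the other genes between -0.42 and 1.54; Xlr5a and Xlr5b were listed at 0 in WT, where the pseudocount limits the difference.

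Other members of the superfamily were measured with the same libraries. Xlr5b, the third Xlr5 copy, had 0.196 and 0.667 RPKM in TKO+Dnmt3a1, 0.231 and 0.228 RPKM in TKO+Dnmt3a2, and 0.767 RPKM in TKO+Dnmt3b1, against 1.082 RPKM in TKO. It was at 0 to 0.027 RPKM in the DKO add-backs, against 1.58 RPKM in DKO, and was listed at 0 in WT. Its difference between TKO add-backs and DKO add-backs was 0.80 ± 0.27 (adjusted p = 0.0815 in limma), with the same split of libraries as in the 8 genes. Xlr, the founding member, reached 0.871 RPKM in TKO and 0.672 RPKM in DKO, against 0.029 RPKM in WT. Sycp3, the autosomal relative, was at 3.52 RPKM in TKO and 10.01 RPKM in DKO, against 16.7 RPKM in WT, and passed neither test (adjusted p = 0.195 in TKO and 0.863 in DKO). Slx, Slxl1 and Sly, relatives expressed in spermatids, were listed at 0 in every library.

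Other X-linked germline families and autosomal germline genes were set beside the Xlr genes. The Rhox homeobox genes, a reproductive cluster elsewhere on the X chromosome, had 9 of 30 listed members above the low-value filter. Only 3 of these 9 reached 1 RPKM in WT, so the others passed through knockout-family libraries, and their direction against WT follows in part from the filter. In TKO against WT 2 of the 9 tested were called, beside 0.344% of all genes, and neither was called under quantile normalization. Rhox1 had 12.3 RPKM in TKO, against 0.902 RPKM in WT (3.19 ± 0.32, adjusted p = 0.0445 in limma). Rhox6 had 17.0 RPKM in TKO, against 1.73 RPKM in WT (2.97 ± 0.24, adjusted p = 0.0355 in limma). In DKO against WT 0 of the 9 were called, as were 0% of all genes. In TKO add-backs against DKO add-backs 5 of the 9 tested were called higher, beside 9.04% of all genes, and Rhox1 differed by 2.41 ± 0.26 (adjusted p = 0.00165 in limma). Of 16 listed Magea antigen genes 5 passed the filter, 1 of them with 1 RPKM or more in WT, and 0 were called in TKO or in DKO against WT. Magea5 had 2.10 RPKM in TKO and 1.46 RPKM in DKO and was listed at 0 in WT. In TKO add-backs against DKO add-backs 2 of the 5 were called higher, beside 9.04% of all genes. These were Magea5 and Magea8 (adjusted p = 0.0203 and 0.0381 in limma). Magea5 was at 0 to 0.019 RPKM in the DKO add-backs. It passed the filter through higher libraries, so its direction follows in part from the filter. Of 30 listed autosomal germline genes 27 were tested, 22 of them with 1 RPKM or more in WT. The medians of the 27 were 0.14 in TKO and -0.01 in DKO against WT, beside 0.13 and 0.04 over all genes tested. Dppa3, a maternal factor also expressed in germ cells, was the 1 gene of the 27 called in TKO against WT, and it was not called under quantile normalization. It had 118 RPKM in TKO and 60.2 RPKM in DKO, against 11.7 RPKM in WT (3.29 ± 0.21 in TKO, adjusted p = 0.0344 in limma). Asz1 had 2.95 RPKM in TKO, against 0.088 RPKM in WT (2.55 ± 0.72, adjusted p = 0.192 in limma), and did not pass. Tex19.1 had 99.8 RPKM in TKO, against 19.2 RPKM in WT (2.35 ± 0.51, adjusted p = 0.144 in limma), and did not pass either. In TKO add-backs against DKO add-backs 6 of these 27 were called higher and 3 lower, beside 9.04% and 4.81% of all genes.

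The pattern of the Xlr genes across the 11 libraries was matched most closely by genes on several chromosomes. Among tested genes without predicted or clone names, the 10 with the highest Pearson r to the mean log2(RPKM + 0.5) of the 8 genes were Ttc39a, Pkd2l1, H2-Eb1, Hormad2, Slc36a1, Rhox2a, Nxf3, Rhox1, Fetub and Magea5. Their r ran from 0.96 for Ttc39a to 0.94 for Magea5, over libraries that share lines and parents, as a description. Rhox2a, Nxf3, Rhox1 and Magea5 are X-linked, and the other 6 are autosomal. Nxf3, an X-linked member of the RNA export factor family, had 2.79 and 8.35 RPKM in TKO+Dnmt3a1, 4.95 and 5.95 RPKM in TKO+Dnmt3a2, and 4.11 RPKM in TKO+Dnmt3b1, against 5.46 RPKM in TKO. It had 0.388 RPKM in DKO+Dnmt3a1, 0.304 RPKM in DKO+Dnmt3a2 and 2.09 RPKM in DKO+Dnmt3b1, against 5.36 RPKM in DKO and 0.123 RPKM in WT. As with Xlr4a, its second TKO+Dnmt3a1 library was the highest of all and DKO+Dnmt3b1 was the highest DKO add-back. Hormad2, which encodes a meiotic chromosome axis protein, was at 5.84 to 9.22 RPKM in the TKO add-backs, against 7.45 RPKM in TKO. It was at 1.58 to 4.26 RPKM in the DKO add-backs, against 9.47 RPKM in DKO and 2.17 RPKM in WT.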

How the data were processed

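PolyA RNA was made into libraries with a TruSeq RNA kit, per the labels' protocols; strand is not kept by that kit. The submitters' processing notes name bcl2fastq 1.8.4, STAR 2.4.0 and mm9; counting, gene lengths and multi-mapping reads are not given in the sources used here. The authors deposited RPKM (11 libraries, 24016 genes, 0 other per-sample columns). Not being counts, these were tested as log2(RPKM + 0.5) with limma 3.58.1 (R 4.3.3, trend). The test covered 14229 genes, those reaching 1 RPKM in any library (all 8 Xlr genes did), with p adjusted over all of them at a threshold of 0.05. Fits used 9 group means (2 residual degrees of freedom), 5 classes (6), or family and enzyme without WT (5); those of group means and of classes were tested on simulated data. Libraries of a line are not stated to be separate cultures, so p-values of the fit of 9 group means may measure technical spread. In the 5-class fit the spread is that among add-back libraries of a family, so it includes differences between enzymes and lines. There TKO+Dnmt3a1 and TKO+Dnmt3a2 each entered with 2 libraries. In the fit of family and enzyme the spread includes differences between the families in their response to an enzyme. Depth came from the spacing of RPKM in transcripts of up to 400 nt (88.3% to 92.0% of values whole within 0.05 reads).

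Sequences came from RefSeq (GRCm38.p6) and GENCODE M21, not the files' build, with Biopython 1.88; Xlr3a was matched by symbol. Named were the 8 genes, their neighbours, up to 3 genes of largest change per list and the 10 most alike. Called genes of the lists and relatives of Xlr were named with values known. Members and lists were chosen with earlier results of these data known. Alternatives were other pseudocounts, filters, scalings and fits, left-out libraries and a replicate block. One neighbouring gene is not reported here.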

Additional observations from a re-analysis of the deposited data

Results flagged for a closer look

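Xlr3c stood apart in 1 library of the 5 TKO add-backs, examined here as a class. TKO+Dnmt3a1 replicate 1 was at 2.58 RPKM and the next value was 5.57 RPKM, so that the gap was 0.763 of the whole range, above Dixon's limit of 0.710 for 5 values. The other library of the same line was at 5.94 RPKM. For the other 7 genes the largest gap was 0.259 to 0.559 of the range. Chance flags about 1 in 20 such groups, and 8 were examined.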

How the results depend on the processing

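All 8 genes were called higher in TKO add-backs than in DKO add-backs under the other pseudocounts, filter, scalings and fit, without both Dnmt3b1 libraries and with each line counted once; the count was 7 with the replicate block and 5 to 8 without single libraries (5 without DKO+Dnmt3a1, 6 without DKO+Dnmt3a2). Leaving out single libraries gave 0 to 6 for DKO add-backs against DKO, 1 to 5 for TKO add-backs against WT and 0 to 7 for any add-back against its parent. With a pseudocount of 0.1, 1 gene was called in TKO against WT, 1 in DKO+Dnmt3a2 against DKO and 0 for any add-back. Without the low-value filter 1 was called in TKO add-backs against WT and 0 for any add-back. Exchanging the 9-mean and 5-class fits gave 1 in TKO against WT, 1 in DKO against WT, 0 in DKO add-backs against DKO and 0 for any add-back. Without both Dnmt3b1 libraries the counts were 8 in DKO add-backs against DKO and 0 for any add-back. With each line counted once, an alternative chosen after seeing the data, they were 2 in TKO add-backs against WT and 0 for any add-back. The replicate number as a block, which does not pair the libraries (r = 0.086), gave 7 in TKO against WT, 6 in DKO against WT, 1 in TKO+Dnmt3b1 against TKO, 6, 8 and 7 in DKO+Dnmt3a1, DKO+Dnmt3a2 and DKO+Dnmt3b1 against DKO, and 6 for any add-back. The cause of these changes was not tested.

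Small differences from WT in DKO add-backs changed sign. Leaving out single libraries gave -0.52 to 0.31 for Xlr3a, -0.18 to 0.33 for Xlr4b, -0.20 to 0.090 for Xlr4c and -0.068 to 0.032 for Xlr5c. Xlr4c was 0.0026 with a pseudocount of 1, and Xlr4b was -0.015 with quantile normalization. Without both Dnmt3b1 libraries Xlr4b was -0.18 and Xlr5c 0.032. In the comparisons of single enzymes, of enzymes with each other and of the parents, 30 of 800 values changed sign. Scaling moved the median change of all genes by at most 0.15, in TKO against WT, where quantile normalization left 0 of 49 genes called, Pnma5 and Rhox1 among those lost. Over all alternatives the number of genes called was 0 to 401 in TKO against WT (49 as reported), 0 to 629 in DKO add-backs against DKO (49), 369 to 3205 in TKO add-backs against DKO add-backs (1970) and 79 to 584 in TKO add-backs against WT (216). It was 0 to 381 in DKO against WT (0), 0 to 1415 for any add-back (559) and 77 to 3504 for Dnmt3b1 against Dnmt3a (2943). Of all 2048 values for the 8 genes 1881 kept both direction and side of the threshold. Depth limits the WT and DKO add-back levels, which rest on few reads for most copies.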
